A study of Rattus norvegicus with 24 samples.

Results

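The data described here are the 4 control arrays of a series of 24, which measured RNA from RBEC4 cells, a rat line labelled as blood-brain barrier cells, on Illumina rat expression BeadChips. They were chosen by their labels alone, as the arrays numbered 1 to 4 of the group exposed to no particles. The other 20 arrays held 5 each of cells given silver particles coated with polyvinylpyrrolidone or citrate, with a nominal size of 10 or 75 nm, at 1 ppm for 18 h, and they enter below only a check of the BeadChips. All cultures, controls included, were 95% confluent per the labels. Controls 1, 2 and 4 lay on one BeadChip, called chip 2 here, and control 3 on the other, chip 1. The labels do not say whether the controls came from separate cultures, so the spread between them may be technical, and a line grown alone carries none of the pericytes and astrocytes of a capillary.

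Brain capillary endothelial cells form the wall between blood and brain tissue. Claudins, occludin and the scaffold protein Tjp1 (ZO-1) close the gap between neighbouring cells, solute carriers and receptors bring nutrients across, and ABC pumps return foreign compounds to the blood. Wnt signals through beta-catenin keep this barrier state in the living brain, and many of its genes are known to decline when such cells are kept in culture. The comparison with marker genes below asks which of these features the array registered in the untreated line.

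A probe was taken as detected when the deposited detection p-value was under 0.01, and a gene when at least 1 of its probes was detected on all 4 arrays. Of 13337 named genes, 1474 (11.1%) were detected on all 4 controls, 486 on 1 to 3 and 11377 on 0. Among all 22523 probes, 2075 (9.21%) were detected on all 4, and 586 of those carry no gene symbol here. The number of detected probes was 2461, 2373, 2269 and 2433 on controls 1 to 4, and the median intensity, which lies at background, was 94.3, 90.9, 89.9 and 92.4 bead intensity units. The lowest intensity of a detected probe lay between 106 and 109. Detected genes were mostly dim: 358 of them had intensities under 1.5 times the array median, 449 lay between 2 and 5 times it, and 36 reached 50 times or more. Just inside the threshold stood Hrh3, the histamine H3 receptor, with intensities of 109.9, 109, 109 and 108, and Steap3, Gabbr1 and Top3b with the same highest detection p of 0.0097. Just outside it, at 0.0109, stood Klf4, a flow-responsive transcription factor of endothelium, with 122, 120.0, 114 and 107, and Rogdi, Ap4m1 and Zcchc24.

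Genes of protein synthesis led the list of brightest named genes. Genes were ordered by the median over the 4 arrays of their rank of non-normalized intensity within an array. Eef1a1, which carries aminoacyl-tRNA to the ribosome, came first with intensities of 22117, 20662, 20967 and 18092 on controls 1 to 4, or 20459.7 ± 1698 (SD, n = 4). Rpl23a, a protein of the large ribosomal subunit, followed with 20709, 18214, 20731 and 18272. These 2 genes held ranks 1 and 2 on every control. Rpl27, also of the large subunit, gave 18341, 16516, 18339 and 15984, and Tpt1, a calcium- and tubulin-binding protein under translational control, gave 18071, 16555, 16843 and 15891. The small-subunit proteins Rps14 and Rps7 stood at ranks 5 and 6 on all 4 arrays, with means of 15614 ± 754 and 14328 ± 690.1, and Rps3 came with 11304 ± 665. In all, 7 of the 40 brightest named genes were ribosomal proteins and 3 were on the list of translation factors. A probe's brightness also depends on the probe, so these ranks describe probes and not amounts of transcript. Ribosomal protein genes and Eef1a1 have near-identical copies in mammalian genomes, and signals from such copies cannot be told apart by a probe that matches several.

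Genes of protein folding and breakdown were also among the 40. Calr, a calcium-binding chaperone of the endoplasmic reticulum, gave 11993, 11481, 11436 and 11332 and varied little, at 11561 ± 295. Ppia, the prolyl isomerase cyclophilin A, gave 12174, 11420.1, 11896 and 10325. Cct3, a subunit of the chaperonin that folds actin and tubulin, was at 5485 ± 338, and Rpn2, a subunit of the enzyme that attaches sugars to new proteins, at 4817 ± 351. Among proteasome genes, Psma7 of the catalytic core gave 11289, 10400.4, 10959.7 and 11360.5 and Psmd11 of the regulatory cap 9305, 9409, 9804 and 9808. Psmb4 and Psmc4, of core and cap, followed at 5323 ± 336 and 4552 ± 122. Oaz1, the antizyme that restrains polyamine synthesis by sending ornithine decarboxylase to the proteasome, gave 12482, 11471, 11395 and 11491.

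Energy, redox and cytoskeletal genes made up much of the rest. Respiratory chain genes among the 40 were Ndufb9 of complex I at 9371 ± 767, the ATP synthase subunits Atp5me and Atp5mc1 at 6838 ± 508 and 6517 ± 407, and Cox7b of cytochrome c oxidase at 4666 ± 513. The antioxidant Txn1 (thioredoxin) stood at 9148 ± 654 and the aldehyde reductase Akr1a1 at 6799.8 ± 271. Akr1c12, another aldo-keto reductase, gave 14592, 12449, 10707 and 9944. Control 1 was highest and control 4 lowest, and its coefficient of variation of 17.3% exceeded the median of 5.49% over detected genes. The actin regulators Cfl1 (cofilin) and Cdc42 were at 11301 ± 714 and 6256 ± 409, Actb at 8214 ± 230.1, and the dynein light chain Dynll1 at 8129.9 ± 592. The other genes among the 40 were the histone genes H2az1 and H2ax, the nucleoside diphosphate kinase Nme2, the nuclear transport GTPase Ran, the RNA helicase Ddx5, the 14-3-3 adaptor Ywhae, the G protein subunit Gnai2, the proton pump subunit Atp6v0c, the ribosomal genes Rpl8 and Rpl22, the elongation factor Eef1d, and Maged1 and Morf4l2. None of the 40 was on an endothelial or barrier list (0 of 149 genes on those lists). Of the 100 brightest probes of any kind, 58 carried no symbol and are not named here.

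**Figure D1:**
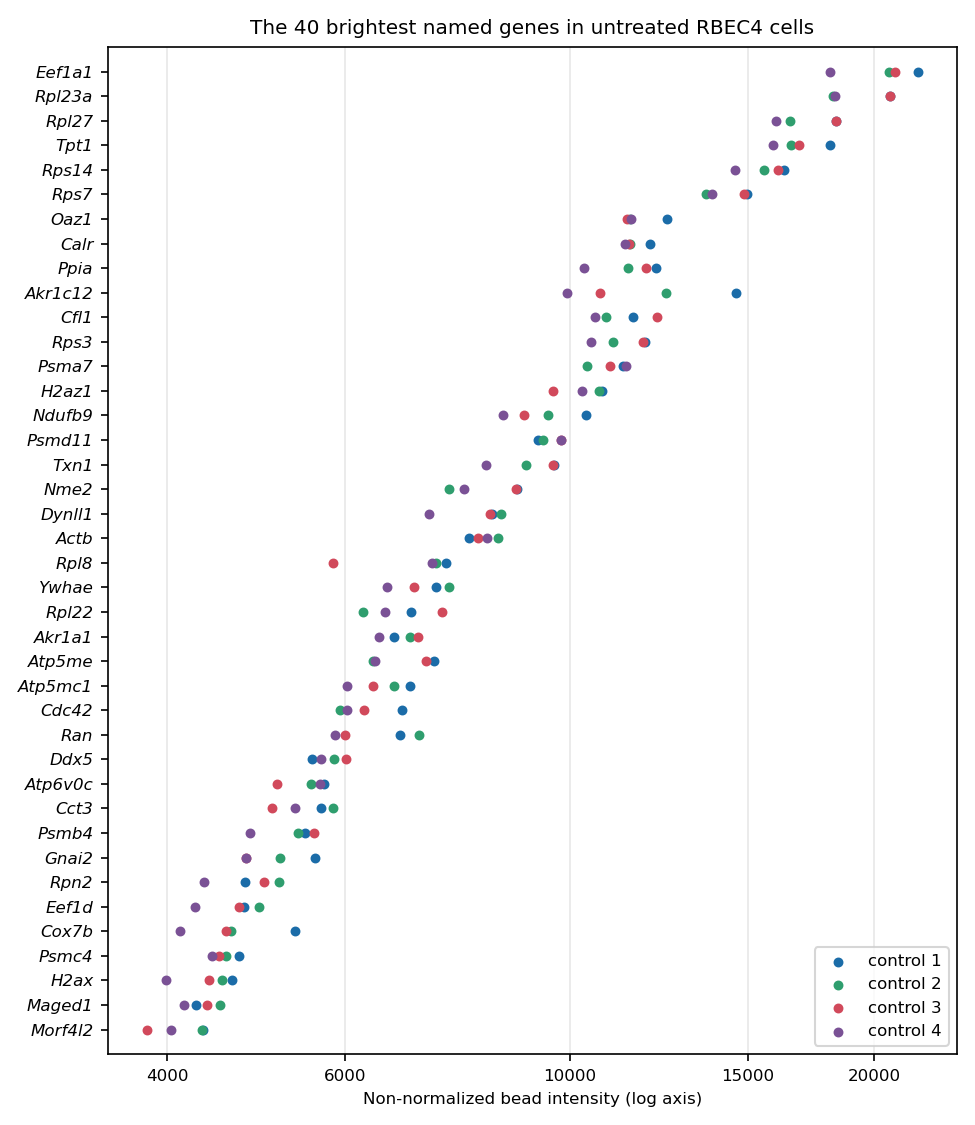
Non-normalized bead intensity (log axis) of the 40 brightest named genes, in order of median rank, with 1 point per control array. The points of a gene lie close together against the span from Morf4l2, at 4129 ± 253, to Eef1a1, at 20459.7 ± 1698, and Akr1c12 and Rpl8 show the widest gaps between arrays.

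Whether a gene was seen depended on the probe that read it. Of 425 genes with several named probes, 86 were detected on all 4 controls, beside 1474 of all 13337 named genes (11.1%). Such genes had more chances to be called, since 1 detected probe was enough. Only 9 of the 86 had every probe detected, while 73 had at least 1 probe on 0 arrays. Eef1a1 was read by 5 probes. The brightest gave the intensities above, another gave 14227, 13445, 14234 and 13333, and one lay at background with 99.5, 93.7, 94.5 and 92.7. Cav1, the coat protein of caveolae, had 1 probe at 444, 353, 410.4 and 382 and another at 88.0, 87.8, 85.4 and 85.7. Among other genes named in this report, Slc1a5, Akr1c12, Txn1, Gstp1, Loxl1, Rarb and Rxrb also had at least 1 probe on 0 arrays. The intensities given for them are those of the brightest probe. A gene read by a single probe, as were 1388 of the 1474 detected genes, has no such second reading, so a gene on 0 arrays has only an upper bound on its intensity and is not shown to be silent.

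Promoters of detected genes held more CG pairs than those of genes on 0 arrays. RefSeq promoters of the GRCr8 assembly were matched for 1279 of the 1474 detected genes and for 9288 of the 11377 genes on 0 arrays. Over the 250 bases before the start, the median number of CG pairs was 18 in the former and 11 in the latter. It was 12 over the 10976 promoters matched for all named genes on the array, and 6 over all 27457 promoters of the table. The motif GGGCGG, searched on both strands, stood in 64.0% of promoters of detected genes and 44.3% of those on 0 arrays. It stood in 46.9% of those of all named genes on the array and 32.4% of all promoters of the table. The motif TATAAA, also on both strands, stood in 6.18%, 12.5%, 11.6% and 13.1% in the same order. Among the 32 promoters matched for the 40 brightest genes it stood in 18.8%. The 9288 promoters of genes on 0 arrays included 1066 of odorant, taste and vomeronasal receptor genes, with a median of 1 CG pair. Among these 1066, GGGCGG stood in 9 and TATAAA in 389, so this family widens the contrast. Shares without the family were not computed. The ribosomal list showed no such gap in CG pairs, with a median of 18 both in its detected genes and in those on 0 arrays, and GGGCGG stood in 9 of 18 promoters of the former and 20 of 30 of the latter. No test was made of these counts, since promoters of a family are not independent. As examples of single genes, which need not follow the medians, 4 promoters are printed with CG pairs in capitals. That of Eef1a1, the brightest gene, lies at chr8:88225070-88225319, minus strand (21 pairs). That of Rplp0, a ribosomal stalk gene seen on 0 arrays, lies at chr12:46718391-46718640, minus strand (18 pairs). That of Tjp1, the one tight junction gene detected on all 4, lies at chr1:128325361-128325610, minus strand (1 pair). That of Cldn5, the main claudin of brain endothelium, seen on 0 arrays, lies at chr11:95718599-95718848, minus strand (10 pairs).
Eef1a1: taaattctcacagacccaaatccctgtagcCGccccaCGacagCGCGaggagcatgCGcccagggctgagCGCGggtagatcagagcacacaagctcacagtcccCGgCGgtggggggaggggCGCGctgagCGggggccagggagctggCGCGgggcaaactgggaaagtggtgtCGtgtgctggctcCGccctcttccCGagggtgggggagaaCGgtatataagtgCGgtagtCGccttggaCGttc
Rplp0: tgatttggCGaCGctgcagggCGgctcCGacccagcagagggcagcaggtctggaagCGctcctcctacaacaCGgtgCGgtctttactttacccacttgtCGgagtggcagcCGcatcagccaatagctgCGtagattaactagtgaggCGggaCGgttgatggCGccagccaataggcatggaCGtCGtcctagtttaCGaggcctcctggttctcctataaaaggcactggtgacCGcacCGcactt
Tjp1: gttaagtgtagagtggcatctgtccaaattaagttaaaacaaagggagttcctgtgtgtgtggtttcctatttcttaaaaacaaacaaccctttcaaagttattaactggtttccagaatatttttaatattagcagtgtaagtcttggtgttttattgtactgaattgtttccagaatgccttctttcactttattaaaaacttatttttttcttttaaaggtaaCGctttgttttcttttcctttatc
Cldn5: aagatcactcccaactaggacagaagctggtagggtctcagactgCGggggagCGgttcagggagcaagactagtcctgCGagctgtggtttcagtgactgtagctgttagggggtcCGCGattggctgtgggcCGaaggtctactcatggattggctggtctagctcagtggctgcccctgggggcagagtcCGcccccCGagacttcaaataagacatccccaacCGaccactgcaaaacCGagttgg
The windows of the bright Eef1a1 and the undetected Rplp0 were thus similarly rich in CG pairs, while that of the detected Tjp1 was almost free of them. Each window lies before an annotated start of the gene, and whether these cells use that start was not tested. A match of letters describes the window and does not show a bound factor.

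The share of detected genes differed widely between 32 gene lists, and lists of widely used cell machinery were themselves seen only in part. Lists of caveolae and vesicle transport (14 of 27 genes on the array, 51.9%), splicing and RNA binding (15 of 30) and the proteasome and ubiquitin (17 of 38, 44.7%) had the highest shares, against 11.1% of all named genes. Of 62 cytosolic ribosomal protein genes, which every cell uses, 23 were detected on all 4, 3 on 1 to 3 and 36 on 0 arrays. Rplp0 gave 97.4, 92.8, 92.4 and 96.0 and Rpl3 85.1, 88.0, 84.7 and 84.7, both at background. In glycolysis 2 of 17 were detected, Aldoa at 1657 ± 98.6 and Ldha at 156 ± 5.22, while Gapdh gave 105, 104, 103 and 97.8, with Pgk1, Eno1 and Pkm also on 0 arrays. The intermediate filament gene Vim gave 89.9, 87.0, 85.9 and 91.5 and the actin gene Actg1 98.6, 90.7, 89.3 and 92.5, beside the bright Actb. With genes such as these at background, a marker at background was not read as a gene that is not expressed, and why their probes gave no signal was not tested. Fewer cells using a gene and less RNA per cell cannot be told apart in lysates.

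**Figure D2:**
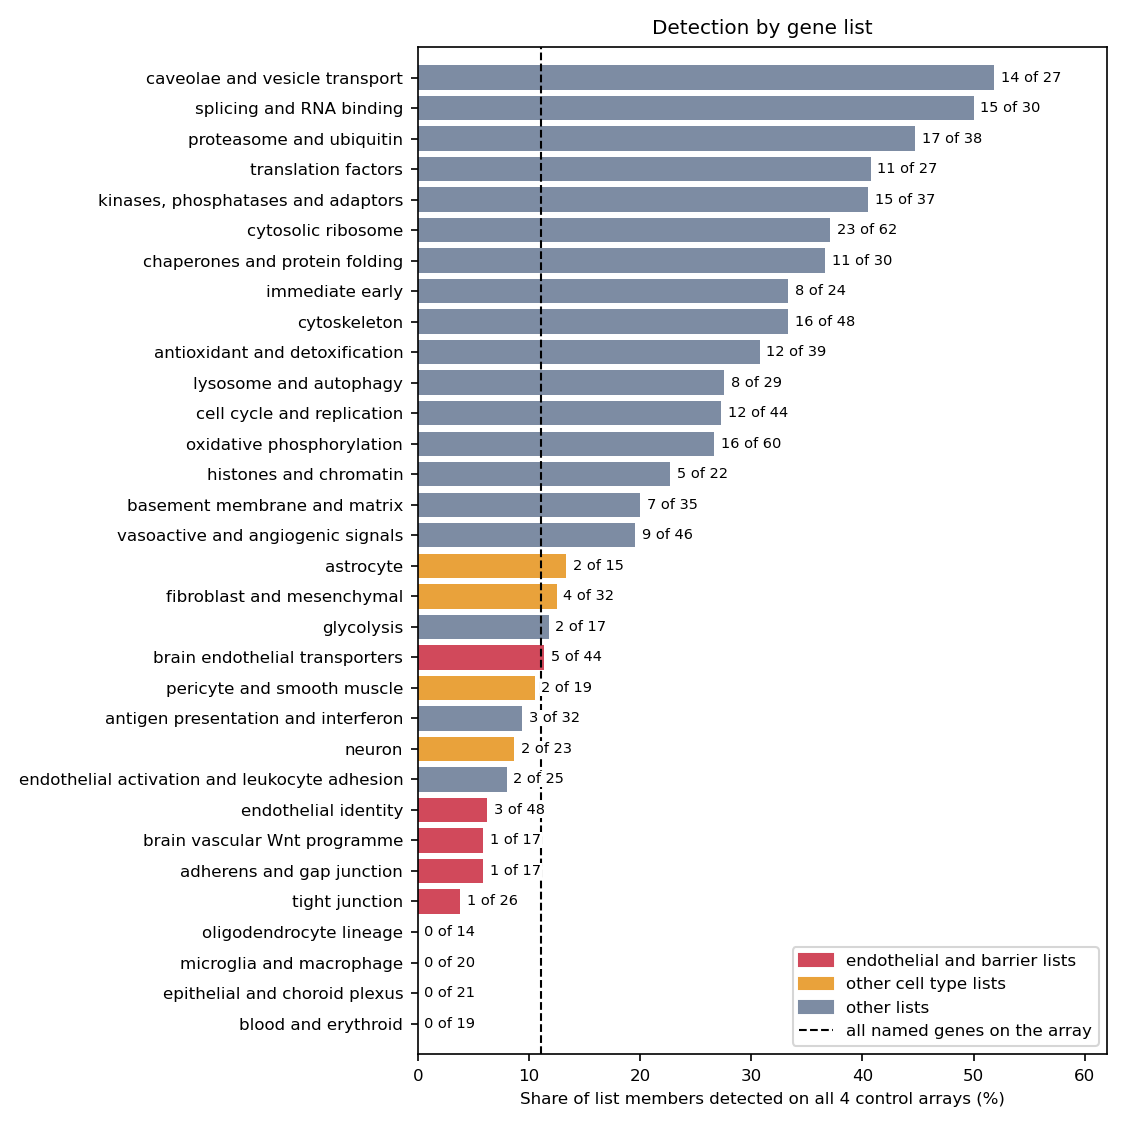
Share of each list's genes on the array that were detected on all 4 control arrays (bars, in percent, with counts), beside the share among all named genes (dashed line, 11.1%). Endothelial and barrier lists (red) and other cell type lists (orange) sit at or below the line or just above it, and lists of general cell machinery reach up to 51.9%.

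Few endothelial identity genes were seen. Of 60 listed symbols, 48 genes had a named probe, and 3 of them (6.25%) were detected on all 4 controls, 5 on 1 to 3 and 40 on 0, against 11.1% of all named genes on all 4. The 3 became 6 at a detection p under 0.05, 1 at 0.001 and 8 when 1 array was enough. Gata2, a transcription factor of endothelial and blood-forming cells, gave intensities of 298, 291, 266 and 235. Clec14a, a C-type lectin of vessel walls, gave 157, 142, 145 and 146. Notch1, a receptor that guides arterial fate and sprouting, gave 119, 123, 144 and 128, with control 3 the highest. All 3 stayed under 3 times the array median. Beside Klf4, detected on 3 arrays, were Thbd (thrombomodulin, an anticoagulant receptor) on 2, with 113, 109, 103 and 102, and on 1 array each Tie1, an angiopoietin co-receptor, Erg, an ETS factor of endothelium, and Myct1. The defining junction cadherin Cdh5 gave 88.1, 89.9, 81.8 and 86.9, and Vwf, the clotting factor stored in endothelial granules, 82.3, 86.1, 81.8 and 82.6. Tek, Nos3, Flt1 and Cd34 were likewise on 0 arrays, and Pecam1, Kdr and Eng have no named probe here. Cdh5, Vwf, Tek, Nos3, Flt1 and Cd34 were thus at background, as were 36 of the 62 ribosomal genes above. Clec14a, Gata2 and Notch1 of the same list were detected on all 4, and Klf4, Thbd, Tie1, Erg and Myct1 on some arrays. The label of a blood-brain barrier line could not be checked by these markers.

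Junction genes were seen through Tjp1. Of 26 tight junction genes 1 (3.85%) was detected on all 4. Tjp1, the scaffold that ties claudins and occludin to actin, gave 1099, 1253, 1271 and 1133, or 1189 ± 85.6 (SD, n = 4), on average 12.96 times the array median. Magi1, another scaffold, was detected on 2 arrays, with 108, 108, 97.5 and 117 and control 3 lowest. Cldn5 gave 107, 102, 104 and 103, with detection p between 0.0170 and 0.0279. At a threshold of 0.05 it was detected on all 4 and the count of tight junction genes became 2. Occludin (Ocln) gave 87.6, 83.8, 86.3 and 84.5, and F11r and Cldn1 were on 0 arrays too. Among 17 genes of adherens and gap junctions only Ctnnbl1, a beta-catenin-like protein known for a role in splicing, was detected on all 4, with 686, 648, 569.6 and 551. Vcl (vinculin) was detected on 1 array, and Ctnnb1 and Gja1 on 0.

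Of 44 transporter and receptor genes of the brain endothelium 5 (11.4%) were detected on all 4, close to the 11.1% of all named genes. Slc1a5, a neutral amino acid exchanger that takes up glutamine, gave 1795, 1902, 1668 and 1549. Slc38a2, a sodium-coupled neutral amino acid carrier, gave 350.2, 355, 336 and 352, with a coefficient of variation of 2.43%. The nucleoside carrier Slc29a1 (ENT1) gave 138, 127, 134 and 125, the iron exporter Slc40a1 (ferroportin) 123, 120.5, 116 and 113, and the glutamate carrier Slc1a2, better known from astrocytes, 121, 114, 119.6 and 119. The barrier's glucose carrier Slc2a1 gave 92.1, 87.5, 88.2 and 90.3, and its large neutral amino acid carrier Slc7a5 101, 89.8, 88.3 and 91.6, both on 0 arrays. The pumps Abcb1b and Abcg2, the transferrin receptor Tfrc and the lipid carrier Mfsd2a were on 0 arrays as well.

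**Figure D3:**
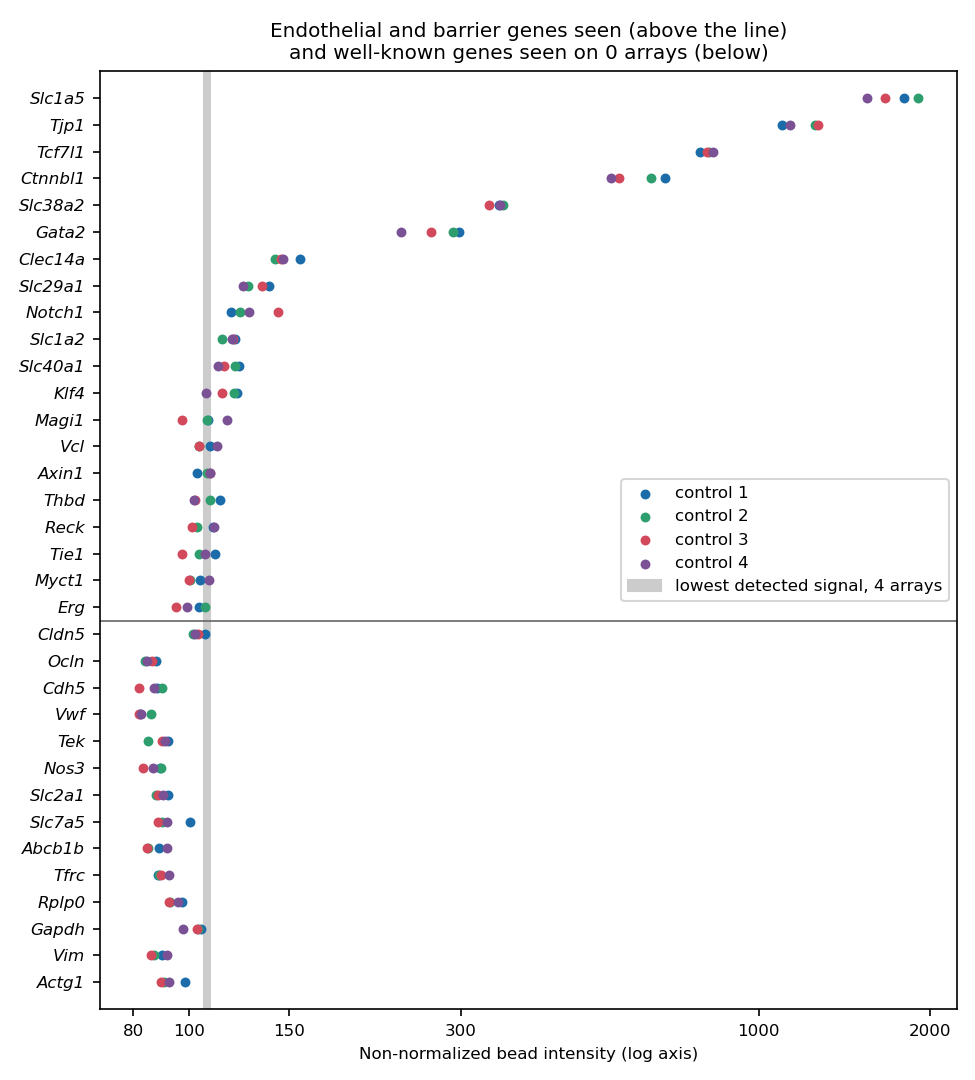
Non-normalized intensity (log axis) of each endothelial or barrier gene detected on at least 1 control array (above the line) and of well-known genes detected on 0 (below), with 1 point per array; the grey band spans the lowest intensity of a detected probe on the 4 arrays. Slc1a5, Tjp1, Tcf7l1 and Ctnnbl1 lie far to the right of the band, and Cdh5, Vwf, Slc2a1, Rplp0 and Vim lie to its left.

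Wnt, vessel growth and vesicle genes were seen to different degrees. The shares of the Wnt list (5.88%) and the endothelial activation list lay below the 11.1% of all named genes. Those of the vasoactive and angiogenic, caveolae and vesicle, and matrix lists lay above it. In the brain vascular Wnt programme 1 of 17 genes was detected on all 4, Tcf7l1, a DNA-binding partner of beta-catenin that mostly represses, with 789, 818, 809.6 and 832. Axin1, a scaffold of the complex that degrades beta-catenin, was detected on 3 arrays and Reck, a membrane co-receptor for Wnt7 ligands, on 2, with Lef1, Axin2 and Fzd4 on 0. Among 46 vasoactive and angiogenic genes 9 (19.6%) were detected. The growth factor Pdgfa gave 2334, 2511, 2607 and 2331, the lymphatic growth factor Vegfc 644, 738, 779 and 739.7, and Id1, a target of BMP signals, 533, 485, 520.2 and 493. Vegfa gave 153, 158, 173 and 169.8, and Adm, Angpt2, Tgfb1, Bmpr2 and Hes1 were detected with means between 116 ± 1.65 and 212 ± 23.5. Caveolar and coated-vesicle genes included Cav1, the clathrin chains Cltc at 2454 ± 209, Clta and Cltb, the adaptor subunit Ap2s1 at 3193 ± 158, and the small GTPases Rab11a and Rab5a. Of further caveolar genes, Cavin1 and Flot1 were detected on all 4, while Cav2, Cavin2, Cavin3 and Ehd2 were on 0 arrays. Of 25 genes of endothelial activation, Il1rap and Nfkb1 were detected, at 186 ± 12.6 and 166 ± 14.1, and the adhesion molecules Icam1 and Vcam1 were on 0 arrays. Matrix genes were seen in 7 of 35 cases, among them Loxl1, a cross-linking oxidase, at 324 ± 11.1, the fibrillar collagen gene Col5a1 with 202, 215, 230.2 and 211, the collagen hydroxylase Plod2 at 201 ± 9.95 and the collagen chaperone Serpinh1 at 142 ± 3.49. The matrix genes Col4a1, Col18a1, Lama1 and Fn1 were on 0 arrays, and the laminin genes Lamb2 and Lamc1 were detected on 2 and 1.

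Few markers of other cell types were detected. The 149 genes of the endothelial, junction, transporter and Wnt lists together held 11 (7.38%) detected on all 4, and 153 further genes of other cell types held 9 (5.88%), both below the 11.1% of all named genes. The sums of these lists were not tested against each other. Of 32 fibroblast and mesenchymal genes 4 (12.5%) were detected, all but 1 of them transcription factors. Prrx1, a homeobox factor of limb and connective tissue mesenchyme, gave 845, 776, 794 and 926. Twist1 gave 299, 274, 307 and 301 and Snai1 230.5, 243, 221 and 203, both known for their roles in epithelial to mesenchymal transition, and the collagen receptor Ddr2 gave 111, 114, 113 and 110.0. Zeb2 was detected on 1 array, and Col1a1, Col3a1 and Vim on 0, with Col1a1 at 93.2, 88.2, 88.7 and 91.2. From the pericyte and smooth muscle list of 19, Tagln2, an actin-binding protein found in many cell types, gave 1985, 1841, 2195 and 1918 and the contractile-cell protein Smtn 128, 153, 146 and 135, while Tagln and Des were on 0 arrays.

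Neural markers were detected at shares near that of all named genes, and immune and blood markers on 0 arrays. Of 15 astrocyte genes 2 (13.3%) were detected on all 4 and of 23 neuronal genes 2 (8.70%), against 11.1% of all named genes. Slc1a2, shared with the transporter list, and Nfix, a transcription factor of wide expression, were the astrocyte genes, the latter at 379.9 ± 25.5, and Gfap gave 95.0, 97.8, 94.7 and 87.1. Among the neuronal genes Slc17a6, the vesicular glutamate carrier, gave 171, 169, 153 and 155 and Nefm, a neurofilament subunit, 111, 111, 109 and 116. Rbfox3 and Gad2 were detected on 2 arrays each, and Map2 on 0. The neuronal count became 4 at a detection p under 0.05 and 0 at 0.001. The lists of microglia and macrophages (20 genes), oligodendrocytes (14), epithelium and choroid plexus (21) and blood (19) had 0 genes detected on any control, and the brightest gene in these 4 lists averaged 1.10 times the array median. Aif1, Itgam and Ptprc of the first, Mbp, Epcam, Ttr and Hbb were all at 0. As 36 of 62 ribosomal genes were also on 0 arrays, these counts of 0 bound the intensity of the probes and not the number of such cells.

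Genes of growth and stress defence were detected in part. In the cell cycle list 12 of 44 (27.3%) were detected on all 4, against 11.1% of all named genes. Ccnd1, the cyclin of early G1, gave 3994, 3965, 4118 and 3876, the growth factor-responsive Myc 2257, 2708, 2351 and 2492, and Cdk1, the mitotic kinase, 889, 925, 715 and 752. Kif22, a chromosome-bound motor, stood at 1267 ± 124, the checkpoint kinase gene Bub1 at 506 ± 51.9 and the helicase subunit Mcm4 at 470.1 ± 24.6. Of 39 antioxidant genes 12 (30.8%) were detected, with Gstp1, a glutathione transferase, at 2584 ± 402, Gpx4, which repairs lipid peroxides, at 940.1 ± 70.4, Prdx2 at 554 ± 57.3 and Sod1 at 211 ± 19.2. The small heat shock protein gene Hspb1 stood at 1154 ± 15.7. Immediate early genes were seen in 8 of 24 cases (33.3%), with Srf at 767 ± 61.7, Klf6 at 428 ± 42.5 and Junb at 327 ± 47.9. The lysosomal protease Ctsl gave 1512, 1532, 1608 and 1432, and 8 of 29 lysosome and autophagy genes were detected. Of 32 genes of antigen presentation and interferon 3 (9.38%) were detected, close to the 11.1% of all named genes. They were Irf7, Bst2 and Psmb10, and Irf7, an inducer of interferon genes, gave 195, 190.2, 187 and 186.

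The 4 controls resembled each other closely. For the 1473 detected genes that bear a full symbol, background-corrected and quantile-normalized log2 intensities had a median SD of 0.121 over the 4 arrays, and for most (10th to 90th percentile) it lay between 0.0545 and 0.213. An SD above 0.3 was found for 18 genes and above 0.5 for 0. Pairs of arrays correlated at r between 0.9941 and 0.9962 over the 2075 detected probes, which is across probes of shared chips and is given as a description. The median absolute difference between a pair ran from 0.12 to 0.15 on the log2 scale, and 0 probes differed by more than 1. Control 3, alone on its chip, was the array farthest from the others for 329 genes (22.3%), control 1 for 434 (29.5%), control 2 for 314 (21.3%) and control 4 for 396 (26.9%).

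A few genes varied more. Ppp1r14b, an inhibitor of protein phosphatase 1, had the largest SD, 0.41 on the log2 scale, with intensities of 622, 519, 384 and 351: controls 1 and 2 were high, controls 3 and 4 low. Plec, the cytoskeletal linker plectin, gave 1097, 1599, 1668 and 1008, with controls 2 and 3 high, and Rc3h2, an RNA-binding ubiquitin ligase, 899.9, 1214, 1519.7 and 965. Fxr2, an RNA-binding relative of the fragile X protein, gave 212, 288, 214 and 249, with control 2 highest. The ribosomal gene Rps27 gave 171, 155, 155 and 126, with control 4 lowest. Cmip, Ybx1, Eif4a2, Ubqln2, Ier5, Zyx and Rhobtb2 completed the 12 of largest spread and all lay under 1.5 times the array median on average. Among the 12 of smallest spread were the aspartyl aminopeptidase gene Dnpep, with 1059.8, 1051, 1035 and 988, the chaperone gene Dnajb6, with 1844, 1736, 1778 and 1664, and the flavoprotein dehydrogenase gene Etfdh, with 1253, 1246, 1230.1 and 1172. Rpl23a had the smallest SD, 0.0069, on a scale where quantile normalization gives probes of equal rank equal values, so the smallest spreads of the brightest genes follow in part from that step.

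**Figure D4:**
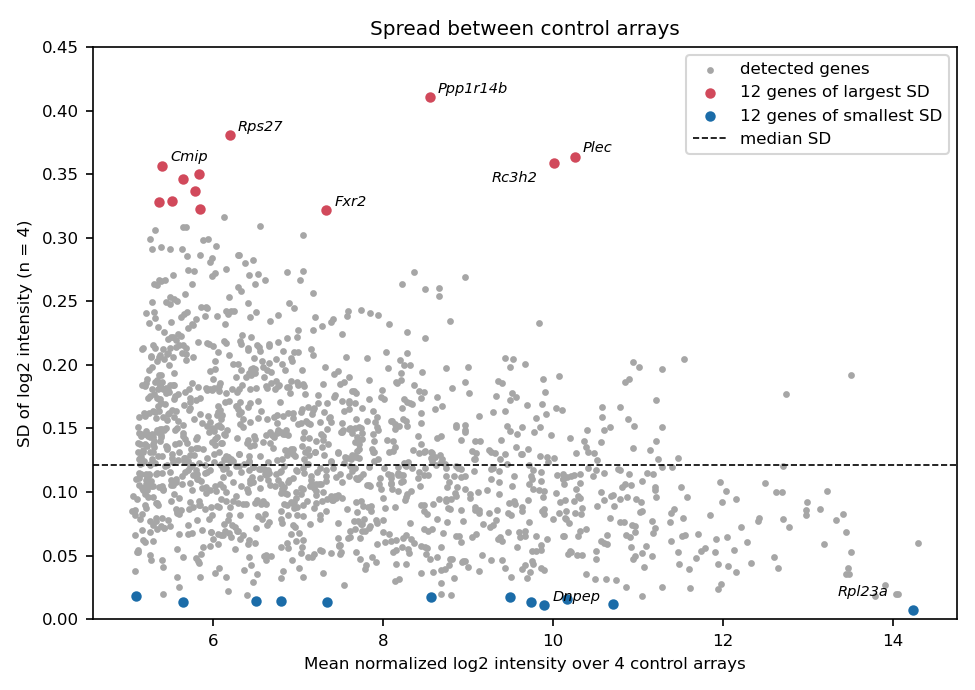
SD of normalized log2 intensity over the 4 control arrays against the mean, 1 point per detected gene, with the 12 genes of largest (red) and smallest (blue) SD and the median SD of 0.121 (dashed). Most of the red genes lie at the dim end on the left, and Ppp1r14b, Plec and Rc3h2 stand apart at higher intensity.

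One series of probes had a higher background than the rest. The 422 probes whose identifiers begin with ILMN_203 or ILMN_204 had median intensities of 105.9, 103.5, 99.2 and 106.3 on controls 1 to 4, against 94.1, 90.8, 89.8 and 92.3 for the other 22101 probes. Of the series 39.1% were detected on 1 to 3 of the controls, against 2.56% of the others, and 13.3% against 9.14% on all 4. On single arrays 29.1%, 32.2%, 13.98% and 42.9% of the series were detected, lowest on control 3, while the other probes stayed between 10.0% and 10.6%. Tie1, Magi1 and Reck, each detected on some arrays only, are read by probes of this series. Without it 1443 named genes were detected on all 4, and the 11 endothelial and barrier genes detected on all 4 were the same in number. The cell cycle list then held 10 detected genes, the antioxidant list 11 and the antigen presentation list 2, from 12, 12 and 3. The series was noticed after the values were seen, and what sets its probes apart was not tested.

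**Figure D5:**
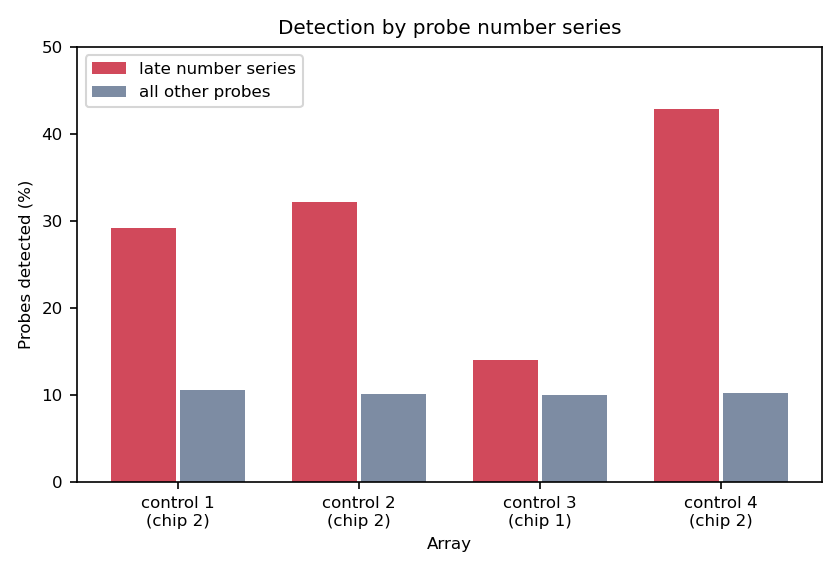
Share of probes detected (detection p under 0.01) on each control array, for the 422 probes of the late number series (red) and the other 22101 probes (grey). The grey bars lie between 10.0% and 10.6%, and the red bars run from 13.98% on control 3 to 42.9% on control 4.

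The chip of control 3 was compared with that of the other controls over all 24 arrays, in 1 model that held both group (5 levels) and chip (limma, Benjamini-Hochberg adjustment). The chip term was called at an adjusted p under 0.05 for 31 of 2774 probes (1.12%), 29 of them higher on chip 2, and for 6 of the 2075 probes detected on all 4 controls (0.289%). Of the 31, 27 belonged to the series above (15.4% of its 175 tested probes) and 4 to the other 2599. When the series was left out, limma called 0 probes, with 244 of 2599 at an unadjusted p under 0.05. When control 3 was left out it called 1. Limma also called 0 probes without background correction, with an offset of 50 or in the authors' normalized table. In these settings 369, 368 and 369 of 2774 probes had an unadjusted p under 0.05. These counts and the 244 all exceed the share of 0.05 that chance gives on average, so 0 calls do not show that the chips were alike. In the setting that called 31, Psmb10, an interferon-inducible subunit of the immunoproteasome, was read by a probe of the series and gave 118, 119.8, 109.8 and 116 on the controls, 0.25 higher on chip 2 on the log2 scale (SE 0.054, adjusted p = 0.018). The 4 called probes outside the series, named after their values were seen, read Rhbdf2, Nploc4, Naa15 and Arpp19. Nploc4, a cofactor of the segregase that extracts ubiquitinated proteins, was highest on control 3, with 209.8, 230.2, 249 and 219. Arpp19, an inhibitor of a mitotic phosphatase, was lowest there, with 2420.2, 2013, 1722 and 1892.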

How the data were processed

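Total RNA of the 4 control samples was purified on columns, treated with DNase and labelled with biotin as amplified cRNA, per the labels' protocols. Each probe and array has, in the main deposited table, a linear bead intensity that carries no background subtraction or normalization, judged from its values. The p-value of detection next to it is named as such in that deposited file and moves in steps of 1 in 825. The submitters' processing notes name GenomeStudio 2011.1, and the sources used here give no later step. The authors' second deposited table of intensity values has equal quantiles on every array and served as an alternative. Array columns were matched to samples by the chip name and position that the labels give, and 0 columns of samples stayed unused.

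In the platform annotation, which can be old, 13793 probes had 1 symbol, 0 had several and 8730 had none. Of the named probes, 13752 had an Entrez identifier in a GRCr8 table, which changed 0 symbols. A gene was represented by its probe of highest mean log2 intensity, and 1 placeholder symbol among the detected genes was counted and not named. For the spread, background was corrected by normexp against a negative control distribution that limma 3.58.1 (R 4.3.3) estimates from detection p, with an offset of 16, followed by quantile normalization over the 4 controls and log2. The chip term used limma's lmFit and eBayes on 24 arrays with 5 groups and chip as terms, over probes detected on at least 4 arrays, with Benjamini-Hochberg adjustment at 0.05. Precision is limited by the number of arrays.

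The members and the 32 gene lists were chosen with earlier results of these data known, so no test was made over a list. Named were the 40 brightest genes, members of each list (up to 8 detected ones, and for endothelial, barrier and other cell type lists all detected or partly detected ones with well-known undetected ones), the 12 genes of largest and 12 of smallest SD, the 4 nearest the detection threshold on either side, and called genes of the chip term among these. Alternatives were other detection thresholds and array counts, leaving out each control, other background corrections and the authors' table.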

Additional observations from a re-analysis of the deposited data

Results flagged for a closer look

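Of 182 named genes detected on all 4 controls, 15 (8.24%) had 1 array whose gap to the nearest of the others took up most of the range of the 4, past the 95% critical value for 4 samples. Chance gives about 1 in 20. Over all 1473 detected genes with a full symbol 81 (5.50%) did so, and the 182 were named in part for their brightness or spread. Of 5 measures of whole arrays, 0 did so. The genes are given with the gap as a share of the range, on normalized log2 values. Control 4 was apart for Eef1a1 (1.0, lowest), Etfdh (0.859, highest), Hspb1 (0.968, highest), Ppp1ca (0.880, lowest) and Tardbp (0.877, highest). Control 2 was apart for Id1 (0.911, lowest), Rpl27 (1.0, lowest), Rps14 (1.0, lowest), Tpt1 (1.0, highest) and Ywhae (0.905, highest). Control 3 was apart for Morf4l2 (0.951, lowest), Mri1 (0.835, highest) and Rps3 (1.0, highest), and control 1 for Pdgfa (0.843, lowest) and Ppp1cb (0.885, lowest).

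The gaps were small in size. Hspb1, a small heat shock protein gene, had log2 values of 10.03, 10.03, 10.03 and 10.20 on controls 1 to 4, and Ppp1cb, a catalytic subunit of protein phosphatase 1, 10.33, 10.67, 10.64 and 10.68. For 5 of the 15 the share was 1.0. There, as for Rps14 with 13.92, 13.87, 13.92 and 13.92, the other 3 arrays had equal values, since quantile normalization gives probes of equal rank the same value.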

How the results depend on the processing

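The count of 1474 detected named genes became 762 at a detection p under 0.001. The 11 endothelial and barrier genes detected on all 4 became 19 at a detection p under 0.05, 6 at 0.001 and 20 when 1 array was enough. Leaving out each control in turn gave 1492 to 1520 named genes and 11 to 12 of the endothelial and barrier genes, and 40 of the 40 brightest genes were shared in every such case, with 39 under mean log2 values. The median SD of 0.121 became 0.0743 without background correction, 0.0933 with an offset of 50, 0.0751 in the authors' table and 0.134 over genes detected on at least 1 array. It lay between 0.109 and 0.118 when a control was left out. The chip term, called for 31 probes, was called for 14 with replicate number as a block and 61 without the detection filter. It was called for 0 without background correction, with an offset of 50 or in the authors' table. There limma gave 369, 368 and 369 of 2774 probes at an unadjusted p under 0.05, above the share of 0.05 that chance gives on average. It was called for 0 without the late probe series, a setting added after the data were seen, and for 1 to 27 when a control was left out, with the 1 reached without control 3. The replicate numbers did not pair arrays: deviations from group means of same-numbered arrays correlated between -0.2 and 0.308, and 1 of 24 arrays was closest to its own number. Of the 12 genes of largest SD, 4 were among the 12 largest without background correction or in the authors' table and 5 with an offset of 50. The causes of these shifts were not tested. Signal over background limits all counts: 24.3% of detected genes lay under 1.5 times the array median.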

Other observations

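Further gene families were counted by their symbols, a choice made after the values were seen. Families of transcription factors were detected in small numbers, with shares on either side of the 11.1% of all named genes. The T-box (18.2%), Hox (14.3%), Iroquois and Dlx, and retinoid, thyroid and PPAR receptor families lay above that share. The Sox (8.33%) and forkhead families lay below it. The T-box gene Tbx15, known for skeletal and adipose development, gave intensities of 347, 388, 371 and 403 on controls 1 to 4, and Tbx2 was the other of 2 detected among 11. Hoxb2 gave 206, 192, 202 and 201 and Hoxa11, a limb and uterus Hox gene, 186, 171, 189 and 195, and with Hoxb8 these made 3 of 21 Hox genes. Of 12 Sox genes 1 was detected, Sox4, and of 20 forkhead genes 1, Foxk2. Of 8 Iroquois and Dlx genes 2 were detected, the homeobox genes Irx5 and Dlx1, with means of 261 ± 18.3 and 222 ± 12.5 (SD, n = 4). Of 10 retinoid, thyroid and PPAR receptor genes 4 were detected. Pparg, the receptor that drives fat cell formation, gave 1151, 1245, 1219.9 and 1170.5, the thyroid hormone receptor Thra 986, 1076, 962 and 1149.7, and the retinoic acid receptor Rarb 918, 937, 929 and 989.6, with Rxrb at 200.3 ± 10.2. Genes that pass new proteins into the endoplasmic reticulum were detected in 6 of 17 cases, with Ssr2 at 3001 ± 277 and Ddost at 1194 ± 56.1.

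Chemosensory receptor, keratin, interleukin and cytochrome P450 families were counted in the same way, and whether these cells express them was not tested. Of 1288 odorant, taste and vomeronasal receptor genes 15 (1.16%) were detected on all 4 controls, against 11.1% of all named genes, and 18 on 1 to 3. The brightest, Or1aa2, gave 257, 254, 265 and 239. Of 42 keratin genes and 31 interleukin genes 0 were detected on all 4, with 0 and 1 on 1 to 3. Of 65 cytochrome P450 genes 2 (3.08%), Cyp4a1 and Cyp2c24, were detected on all 4, and 3 on 1 to 3. A second probe of Cyp4a1 was on 0 arrays, with 93.9, 86.4, 90.4 and 89.7.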
